A study of Mus musculus with 8 samples.

Results

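Toll-like receptors are the membrane proteins with which macrophages sense microbial molecules, and the genes described here are Tlr1, Tlr2, Tlr4, Tlr6, Tlr7, Tlr9, Tlr13, Cd14, Cd180 and Ly86. They were found by name among the spots of the arrays that are no controls. Of the 10 genes, 9 had a spot and Tlr13 was not analysed here. They were read by 11 probes, of 41174 on the array, which together filled 29 of its 43379 spots.

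The cells were RAW 264.7, a macrophage-like line of BALB/c origin. Lactobacillus acidophilus MTCC-10307 was added to one set of cultures and Bacillus clausii MTCC-8326 to another, at 100 bacteria per cell, for 1, 2, 4 or 6 h. Each of the 8 arrays, 1 per bacterium and time, set RNA of the treated cells, labelled with Cy5, against RNA of untreated cells of the same time, labelled with Cy3. Equal amounts of RNA from 3 cultures were pooled for each label, so no array had a replicate, and the number of arrays limits the precision of every value below. No array exchanged the dyes, so a dye effect particular to a gene cannot be told apart from a rise or fall seen with both bacteria. All L. acidophilus arrays lay on 1 slide and all B. clausii arrays on another, so slide and bacterium cannot be told apart either. The sources used here do not say if one untreated RNA served for both bacteria.

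Tlr2 acts in a pair with Tlr1 or Tlr6 and senses bacterial lipoproteins, and Tlr4 senses the lipopolysaccharide of Gram-negative bacteria with the help of Cd14. Tlr7, Tlr9 and Tlr13 lie in endosomes, where Tlr7 senses single-stranded RNA, Tlr9 unmethylated CpG DNA and Tlr13 bacterial ribosomal RNA. Cd180 (RP105) resembles the outer part of Tlr4 without a signalling domain, and pairs with MD-1, the product of Ly86, as Tlr4 pairs with MD-2. Both bacteria used here are Gram-positive.

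All kept probes of the set were well above background in both channels on all 8 arrays: 10 of the 11. The exception was a second Tlr4 probe (ENSMUST00000107365, chr4:66590556-66590615 of mouse build mm9), which was above background on 0 of 8 arrays. It lies 86.8 kb from the first Tlr4 probe (NM_021297, chr4:66503724-66503782) and was left out of the tests. Of the other genes with 1 probe, all but Cd14 are given here, at chr5:65316115-65316174 (Tlr1), chr5:65344365-65344424 (Tlr6), chr3:83640344-83640403 (Tlr2), chrX:163743189-163743248 (Tlr7), chr9:106128979-106129038 (Tlr9) and chr13:37510701-37510760 (Ly86), by the array's own annotation in the same build. That annotation does not say which exon or untranslated region a probe lies in. No run of more than 8 bases was shared by any 2 of the 11 probes.

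Cd180 was read by 2 probes that gave different answers, and their sequences are shown because the result for this gene turns on them. Both are 60 bases long with 35% G and C, lie on the plus strand of chromosome 13 and are 2007 bases apart. The first (chr13:103494202-103494261) is annotated with the cDNA clone AK089613 and the second (chr13:103496269-103496328) with the RefSeq transcript NM_008533, which is not among the accessions of the first. Read as coding letters, the first holds a stop codon in 3 of 3 forward reading frames and the second in 1 of 3.
Cd180 AK089613 probe: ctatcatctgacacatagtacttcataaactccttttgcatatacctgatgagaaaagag
Cd180 NM_008533 probe: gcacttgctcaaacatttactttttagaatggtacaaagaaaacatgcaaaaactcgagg

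Every ratio below is log2 of treated over untreated signal, after loess normalization within the array, which sets each value against probes of like brightness. Between 39.6% and 51.5% of all probes were well above background in treated cells and 42.1% to 47.4% in untreated cells, and the SD of the ratios of the 21273 probes kept for the tests was 0.21 to 0.30. No spot was saturated. Of 10 macrophage marker genes, 7, among them Adgre1, Csf1r and Cd68, were above background on all 8 arrays in both channels and Mrc1 on 0. Among 24 markers of B cells, T cells, fibroblasts, epithelium and neutrophils with a probe, Lck was above background on all 8 arrays in both channels, and Ms4a1, Cd3g, Col1a1, Dcn, Epcam and S100a9 on 0.

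**Figure D1:**
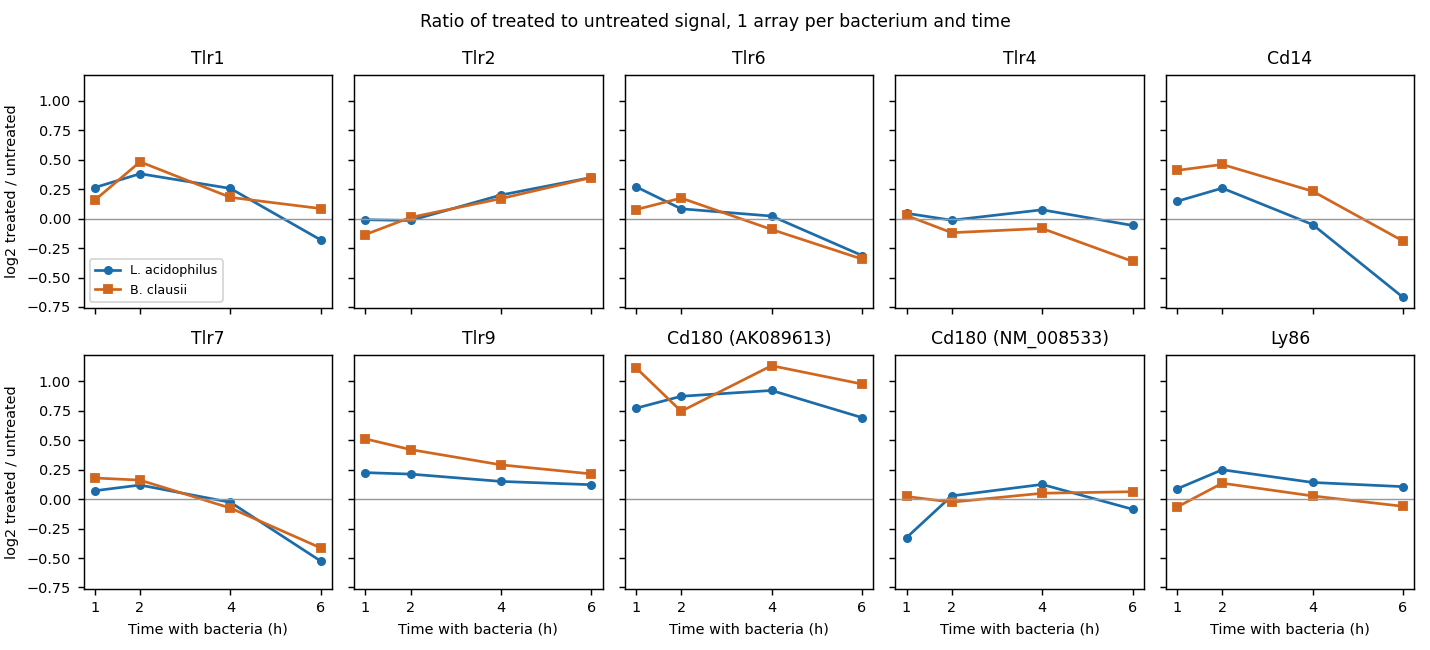
Each panel plots the log2 ratio of treated to untreated signal (y axis) against time with bacteria in hours (x axis) for 1 probe, with circles for L. acidophilus and squares for B. clausii, 1 array per point. The Cd180 AK089613 probe lies between 0.69 and 1.13 on all 8 arrays. Cd14, Tlr4, Tlr6 and Tlr7 lie below 0 at 6 h with both bacteria, Tlr4 only slightly (-0.06) with L. acidophilus.

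The Cd180 AK089613 probe gave the highest ratios of the set on all 8 arrays. With L. acidophilus its ratio was 0.77, 0.87, 0.92 and 0.69 at 1, 2, 4 and 6 h, and with B. clausii it was 1.12, 0.75, 1.13 and 0.98. The treated signal exceeded the untreated one at every time, by 1.62-fold to 1.90-fold with L. acidophilus and by 1.68-fold to 2.19-fold with B. clausii. On the log2 scale the normalized signal was 8.47, 8.55, 8.74 and 8.50 in cells with L. acidophilus, against 7.70, 7.68, 7.81 and 7.81 in untreated cells. On the B. clausii arrays it was 8.63, 8.34, 8.66 and 8.73 in treated cells, against 7.51, 7.59, 7.52 and 7.76 in untreated cells, and on neither slide did the channels overlap. These ratios stood between the 99.1th and the 99.9th percentile of all kept probes of their array.

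The Cd180 NM_008533 probe showed no such rise. With L. acidophilus its ratio was -0.33, 0.03, 0.13 and -0.09 at 1, 2, 4 and 6 h, while the B. clausii arrays gave 0.02, -0.03, 0.05 and 0.06. The normalized log2 signal of treated cells was 6.86 to 7.05 with L. acidophilus and 6.86 to 7.11 with B. clausii, against 6.83 to 7.24 and 6.83 to 7.06 in the untreated cells of the same slides, so the channels overlapped on both. On every array the AK089613 probe had the higher ratio, by at least 0.77. The NM_008533 probe was the dimmest kept probe of the set, and the Tlr4 probe left out as not above background had 5.98 to 6.35. Whether a probe this dim could show a like rise was not tested.

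**Figure D2:**
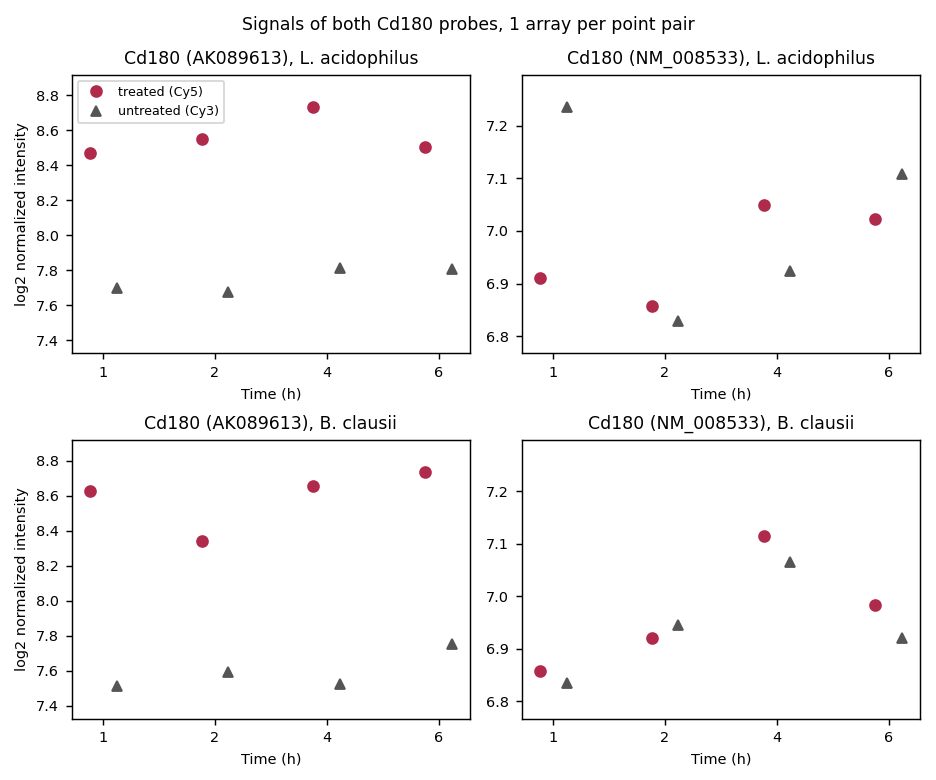
Normalized log2 intensity (y axis, with its own range for each probe) against time in hours (x axis) for the AK089613 probe on the left and the NM_008533 probe on the right, L. acidophilus above and B. clausii below. Circles are treated cells and triangles untreated cells of the same array. Only the AK089613 probe separates them at every time, with 8.34 to 8.74 in treated and 7.51 to 7.81 in untreated cells.

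The mean response over the 4 times asked which genes stood higher or lower in treated cells on average. A call does not mean that the sign was the same at every time. It was tested with limma, with p-values adjusted by the Benjamini-Hochberg method over all 21273 kept probes and a threshold of 0.05. The AK089613 probe of Cd180 rose with L. acidophilus by 0.82 ± 0.070 (SE, 4 arrays, limma adjusted p = 3.84e-04) and with B. clausii by 0.99 ± 0.070 (limma adjusted p = 4.66e-05). The NM_008533 probe had means of -0.06 (95% interval -0.22 to 0.09) and 0.03 (-0.12 to 0.18) and did not pass. With the local background as deposited the mean of the AK089613 probe with L. acidophilus was 0.58 and the call was lost (adjusted p = 0.0977), while that with B. clausii held in all 21 alternatives run. From the processed signals of the scanner software, the probe passed 2-fold on all 8 arrays, against 2 in the main processing, the B. clausii arrays of 1 and 4 h. Of all kept probes 0.541% and 0.367% passed 2-fold on those 2 arrays.

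Tlr9 also rose with B. clausii. On the L. acidophilus arrays its ratio was 0.23, 0.21, 0.15 and 0.12 at 1, 2, 4 and 6 h, and B. clausii gave 0.51, 0.42, 0.29 and 0.21, above 0 on all 8 arrays and lowest at 6 h with each. The mean with L. acidophilus was 0.18 ± 0.057 (SE, limma adjusted p = 0.0502), which did not pass here but did in 7 of 21 alternatives. The mean with B. clausii was 0.36 ± 0.057 (SE, limma adjusted p = 0.00187) and passed. The difference of L. acidophilus minus B. clausii was -0.18 (95% interval -0.32 to -0.05, limma adjusted p = 0.134). It was negative at each of the 4 times, from -0.29 at 1 h to -0.09 at 6 h, but did not pass. The Tlr9 signal also differed between untreated samples, which spanned 7.91 to 8.86 on the log2 scale on the L. acidophilus slide and 8.20 to 8.80 on the B. clausii slide, a wider range than the ratios. The rise with B. clausii depended on the centring of the arrays. When each array was centred on the median of all spots instead of by loess, the kept probes had a median of between -0.43 and -0.06, lowest at 1 h (-0.43) and 2 h (-0.25) with B. clausii. The Tlr9 mean with B. clausii was then -0.01 (adjusted p = 0.905), and 0.23 relative to that median (adjusted p = 0.00787).

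The other probes of the set did not pass for either bacterium. In all, 1 of 10 probes was called with L. acidophilus, where 20.5% of all kept probes were, and 2 of 10 with B. clausii, where 24.1% were. The called probes were all higher in treated cells. The median of the 10 means was 0.07 with L. acidophilus and 0.06 with B. clausii, against 0.00 and -0.01 over all kept probes.

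**Figure D3:**
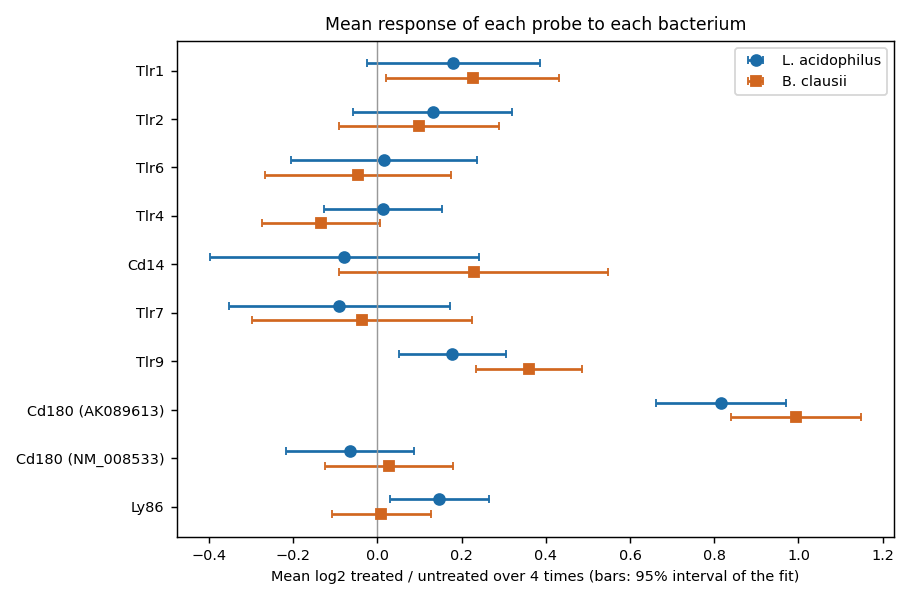
Mean log2 ratio of treated to untreated signal over the 4 times (x axis) for each of the 10 probes (y axis), with circles for L. acidophilus, squares for B. clausii and bars for the 95% interval of the limma fit. The Cd180 AK089613 probe stands at 0.82 and 0.99, and Tlr9 at 0.18 and 0.36.

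Among the receptors of bacterial lipoproteins, Tlr2 stood higher at the later times. This probe is spotted 10 times on each array, so its ratio has a spread between spots, which covers the array and not the cultures. With L. acidophilus it was -0.01, -0.02, 0.20 and 0.35 at 1, 2, 4 and 6 h, with SDs between 9 or 10 spots of 0.11 to 0.14 for Tlr2. With B. clausii it was -0.13, 0.01, 0.17 and 0.35, with SDs of 0.083 to 0.24. At 1 and 2 h the mean lay within 1 SD of 0 with both bacteria, and at 4 and 6 h it lay further from 0. Every unflagged spot was above 0 at 4 h, from 0.04 to 0.35 with L. acidophilus and from 0.03 to 0.30 with B. clausii. At 6 h the spots ran from 0.12 to 0.57 with L. acidophilus and from -0.07 to 0.50 with B. clausii. The Tlr2 signal of untreated cells spanned 11.88 to 12.48 on the log2 scale on the L. acidophilus slide, a wider range than the ratios there. On the B. clausii slide it spanned 12.38 to 12.56, a narrower range than the ratios.

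Tlr1, a partner of Tlr2, was highest at 2 h with both bacteria. Its ratio was 0.26, 0.38, 0.26 and -0.18 on the L. acidophilus arrays and 0.16, 0.48, 0.18 and 0.09 on the B. clausii arrays, above 0 on 7 of 8 arrays. Tlr6, the other partner, had 0.27, 0.08, 0.02 and -0.31 with L. acidophilus, where B. clausii gave 0.08, 0.18, -0.09 and -0.34, and was lowest at 6 h with each. Neither gene had a mean response that passed in the main processing. That of Tlr1 was 0.18 (95% interval -0.02 to 0.39) with L. acidophilus and 0.23 (0.02 to 0.43, limma adjusted p = 0.101) with B. clausii. Without the L. acidophilus array of 6 h, the one on which Tlr1 was below 0, Tlr1 passed for both bacteria. Median centring gave Tlr1 means of 0.07 with L. acidophilus (limma adjusted p = 0.661) and -0.08 with B. clausii (adjusted p = 0.522). Relative to the median of the kept probes they were 0.15 and 0.16 and did not pass. The Tlr6 mean with B. clausii passed with median centring (-0.41, adjusted p = 0.00442), but not relative to that median (-0.17, adjusted p = 0.146).

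Tlr4, also spotted 10 times, differed little from untreated cells. With L. acidophilus its ratio was 0.05, -0.01, 0.08 and -0.06, each within 1 SD of 0 between spots (SD 0.070 to 0.13). With B. clausii it was 0.03, -0.12, -0.08 and -0.36. At 6 h with B. clausii the spots ran from -0.74 to -0.02, all below 0, with an SD of 0.24, and the log2 signal was 8.76 in treated cells and 9.12 in untreated cells, each the lowest of its channel for Tlr4. The mean with B. clausii was -0.13 (95% interval -0.27 to 0.01, limma adjusted p = 0.150) and did not pass, though it did with median centring (-0.55, adjusted p = 1.62e-04, or -0.31 relative to the median of the kept probes, adjusted p = 0.00212).

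**Figure D4:**
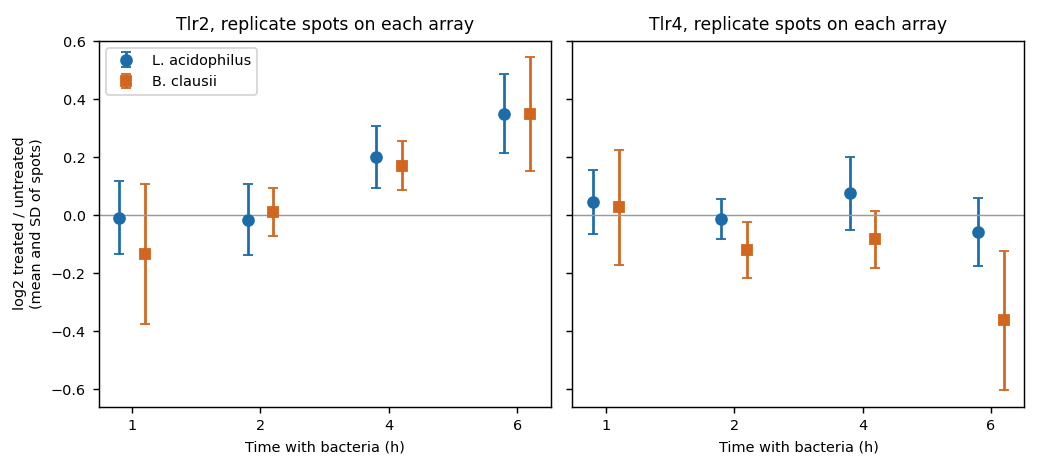
Mean and SD of the log2 ratio of treated to untreated signal (y axis) over the 8 to 10 unflagged replicate spots of Tlr2 (left) and Tlr4 (right) at each time in hours (x axis), with circles for L. acidophilus and squares for B. clausii. Tlr2 reaches 0.35 at 6 h with both bacteria, and Tlr4 stands at -0.36 at 6 h with B. clausii.

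Cd14, the co-receptor of Tlr4, had the widest range of the set. With L. acidophilus its ratio was 0.15, 0.26, -0.05 and -0.67 at 1, 2, 4 and 6 h, and the B. clausii arrays gave 0.41, 0.46, 0.23 and -0.19. It was thus highest at 2 h and lowest at 6 h with each. The log2 signal of treated cells spanned 1.01 on the L. acidophilus slide and 0.56 on the B. clausii slide, against 0.13 and 0.14 in untreated cells. With L. acidophilus it was 13.83, 13.90, 13.57 and 12.89 in treated cells, against 13.69, 13.64, 13.62 and 13.56 in untreated cells. With B. clausii it was 14.05, 14.00, 13.81 and 13.49 in treated cells, against 13.64, 13.53, 13.58 and 13.68 in untreated cells. At 6 h with L. acidophilus the Cd14 ratio was at the 0.583th percentile of the kept probes.

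Cd14 was lower with L. acidophilus than with B. clausii at each time, by -0.26, -0.20, -0.28 and -0.48 at 1, 2, 4 and 6 h. The mean difference was -0.31 (95% interval -0.45 to -0.16, limma adjusted p = 0.0571) and missed the threshold. It passed when only probes above background in both channels of all 8 arrays were tested (adjusted p = 0.0353) and with a trended robust prior (adjusted p = 0.0323). With median centring it was 0.01, or -0.15 relative to the median of the kept probes (adjusted p = 0.222). None of the 10 probes was called for a difference between the bacteria, where 1.45% of all kept probes were. The intervals of the difference for Tlr1, Tlr2, Tlr6 and Tlr7 lay between -0.21 and 0.21. With median centring 4 of the 10 differences were called, those of Tlr2 (0.34), Tlr4 (0.39), Tlr6 (0.28) and Ly86 (0.43), where 31.9% of all kept probes were.

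The endosomal receptor Tlr7 was near 0 until 4 h and lower at 6 h. Its ratio was 0.07, 0.12, -0.03 and -0.53 on the L. acidophilus arrays and 0.18, 0.16, -0.08 and -0.41 on the B. clausii arrays. At 6 h the log2 signal was 7.77 in treated and 8.30 in untreated cells on the L. acidophilus array, and 8.11 and 8.52 on that of B. clausii. The Tlr7 mean with B. clausii was -0.04 and did not pass. Median centring turned it to -0.39 (limma adjusted p = 0.0106), or -0.15 relative to the median of the kept probes (adjusted p = 0.257). Ly86, which encodes the partner of Cd180, moved least, with the smallest SD over the 8 arrays of the 9 genes (0.11, against 0.37 for Cd14). Its ratio was 0.09, 0.25, 0.14 and 0.11 on the L. acidophilus arrays and -0.07, 0.14, 0.03 and -0.06 on the B. clausii arrays. The Ly86 mean was 0.15 (95% interval 0.03 to 0.26, limma adjusted p = 0.0765) with L. acidophilus and 0.01 (-0.11 to 0.13) with B. clausii. The second turned to -0.44 with median centring (adjusted p = 0.00540), or -0.20 relative to the median of the kept probes (adjusted p = 0.0467).

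**Figure D5:**
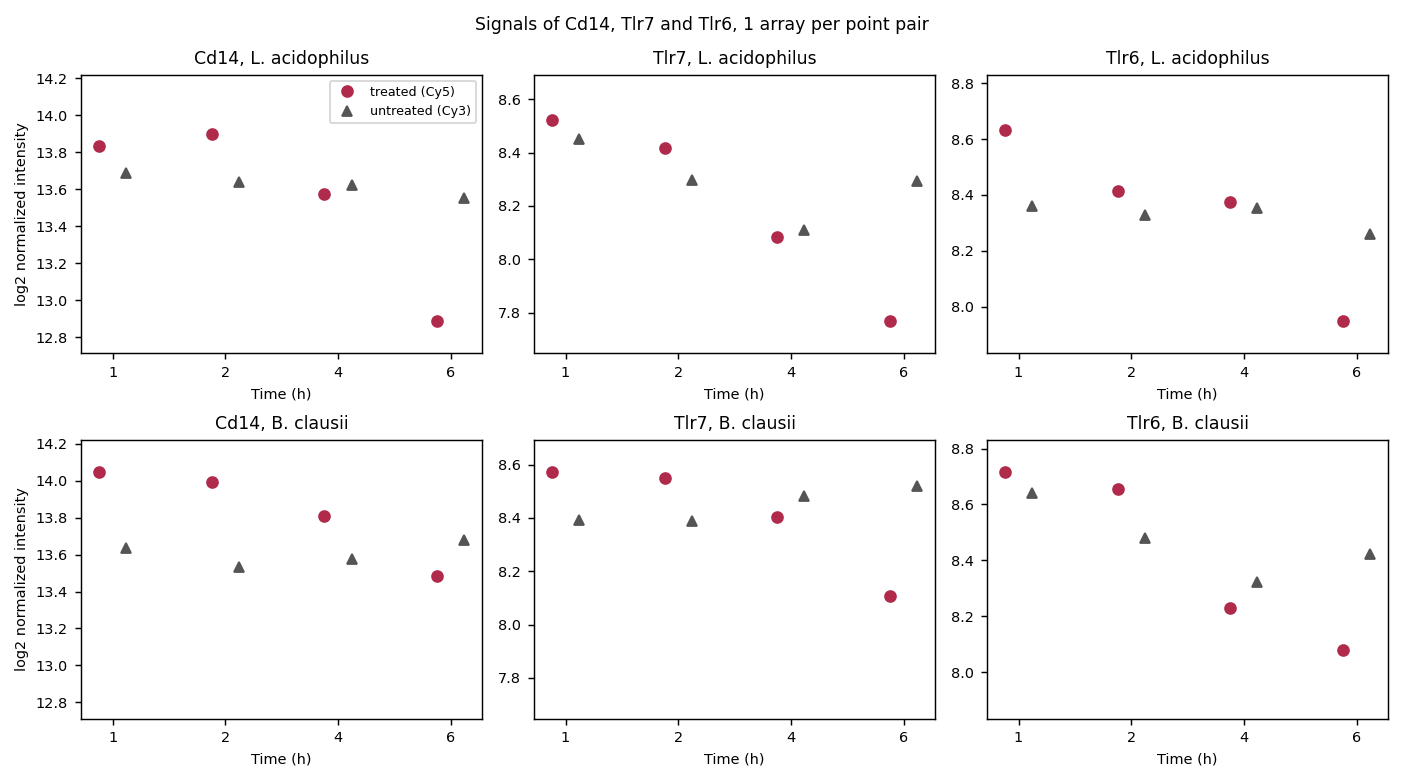
Normalized log2 intensity (y axis, with its own range for each gene) against time in hours (x axis) for Cd14, Tlr7 and Tlr6, with L. acidophilus above and B. clausii below. Circles are treated cells and triangles untreated cells of the same array. In all 6 panels the treated value at 6 h is the lowest of its row of circles and lies below the untreated value, such as 12.89 against 13.56 for Cd14 with L. acidophilus.

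The 4 and 6 h arrays were set against the 1 and 2 h arrays of the same bacterium to ask which ratios changed with time. For Cd14 the late minus early change was -0.56 with L. acidophilus (95% interval -0.99 to -0.14) and -0.41 with B. clausii (-0.84 to 0.01). For Tlr7 it was -0.37 (-0.74 to -0.01) and -0.42 (-0.78 to -0.05), and for Tlr6 -0.32 (-0.64 to -0.01) and -0.34 (-0.66 to -0.03). Tlr2 went the other way, with 0.29 (0.03 to 0.54) and 0.32 (0.07 to 0.58). With 2 arrays on each side none of the 10 probes passed in limma, where 0.146% and 0.160% of all kept probes did, and the adjusted p-values of these 4 genes were 0.301 to 0.428 with L. acidophilus and 0.217 to 0.300 with B. clausii. At an unadjusted p under 0.05 the counts of limma were 4 and 3 of 10, where 11.3% and 17.3% of all kept probes had such a p. For the difference in late minus early change between the bacteria, limma called 0 of the 10 probes (0 at an unadjusted p under 0.05) and 0 of all kept probes (265 at an unadjusted p under 0.05).

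When arrays of the same time were fitted as repeats, with bacterium and time as factors, 5 of 10 probes passed for a late minus early change common to both bacteria, against 23.1% of all kept probes. Cd14 fell by 0.49 ± 0.065 (SE, limma adjusted p = 0.00141), Tlr7 by 0.39 ± 0.059 (adjusted p = 0.00235), Tlr6 by 0.33 ± 0.065 (adjusted p = 0.00734) and Tlr1 by 0.24 ± 0.074 (adjusted p = 0.0471). Tlr2 rose by 0.30 ± 0.058 (adjusted p = 0.00668). Tlr4, Tlr9, Ly86 and both Cd180 probes did not pass. In that fit the spread is the disagreement of the bacteria within a time, so noise of untreated RNA that both may have shared does not enter it.

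For the 3 genes with the widest spread over the arrays, the most similar profiles were sought among the 4781 kept probes with a symbol and an SD of at least 0.2. Cd14 was most like Lpin1 (Pearson's r = 0.98 over 8 arrays), Dnajc22 (0.98) and Slc1a5 (0.98). Tlr7 was most like Slc39a10 (0.99), Bnip3 (0.99) and Ndrg1 (0.99), and Tlr6 most like Erp44 (1.00), Sec62 (0.98) and Ocstamp (0.97). The points are 8 arrays that share slides and times and may share untreated RNA, and these genes are the highest of 4781, so the values describe likeness only.

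Other genes of the pathway were read in lists. With median centring none of the rises given below for B. clausii passed, and probes of Unc93b1 (-0.11 and -0.045), Pld4 (-0.094), Lgmn (-0.18), Socs3 (-0.013) and Tollip (-0.10) were below 0. Of the remaining Toll-like receptor genes, Tlr3 and Tlr8 were above background on 0 of 8 arrays in either channel, and Tlr5 on 4 in treated and 4 in untreated cells with means of 0.06 and 0.06. Of 21 probes for partners, chaperones and trafficking factors of the receptors, 2 rose and 0 fell with L. acidophilus, and 7 rose and 0 fell with B. clausii, where 20.5% and 24.1% of all kept probes were called in either direction. With median centring 0 rose and 12 fell with B. clausii, where 55.1% of all kept probes were called. The 2 rises with L. acidophilus were 1 when its array of 1 or 4 h was left out and 4 when the 6 h array of B. clausii was, and the 7 with B. clausii were 4 when its array of 2 or 4 h was. The chaperone gene Hsp90b1 (gp96), which folds most Toll-like receptors, rose by 0.54 ± 0.11 (SE, limma adjusted p = 0.00822) and 0.61 ± 0.11 (adjusted p = 0.00315), but its second probe did not pass. At 1, 2, 4 and 6 h that second probe had 0.64, 0.45, 0.34 and -0.46 with L. acidophilus. With B. clausii it had 0.59, 0.14, -0.23 and -0.98. Unc93b1, which escorts Tlr7 and Tlr9 to endosomes, rose by 0.25 with L. acidophilus on 1 of its 2 probes, and by 0.37 and 0.21 on both with B. clausii. Pld4, an endosomal nuclease that limits Tlr9 signalling, had 0.05 with L. acidophilus and rose by 0.36 with B. clausii. That difference of -0.30 passed (limma adjusted p = 0.0421), as it did in 3 of 22 alternatives, and it was singled out after its value was seen. Ly96, which encodes MD-2, the partner of Tlr4, did not pass, with -0.19 and -0.28.

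Among 12 probes for endosomal proteases and nucleases, 2 rose and 1 fell with each bacterium. Of all kept probes 20.5% were called in either direction with L. acidophilus and 24.1% with B. clausii. Ctsb, for the lysosomal protease cathepsin B, rose by 0.43 ± 0.075 with L. acidophilus (SE, limma adjusted p = 0.00494) and 0.63 ± 0.075 with B. clausii (adjusted p = 4.15e-04), on 1 of its 2 probes. Ctsk (cathepsin K) rose by 0.20 with L. acidophilus and the protease gene Lgmn by 0.24 with B. clausii. The probe that fell, by 0.21 with L. acidophilus and 0.28 with B. clausii, is annotated to Rnaset2a, which has a near-identical copy, Rnaset2b.

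Of 26 probes for adaptors and proximal kinases, 1 rose and 2 fell with L. acidophilus, and 1 rose and 3 fell with B. clausii. Over all kept probes 20.5% and 24.1% were called in either direction. The 2 that fell with L. acidophilus became 0 when its 1 h array was left out, 1 when any single array of 2 or 4 h was, and 4 when the B. clausii array of 1 or 6 h was. The 3 that fell with B. clausii became 16 with median centring, where 10859 of all 21273 kept probes were called lower. They became 0 when its array of 2, 4 or 6 h was left out. They became 1 to 2 when the 1 h array of B. clausii or the 2 or 4 h array of L. acidophilus was left out. Of the 3 probes of Tollip, an inhibitor of receptor signalling, one rose by 0.26 with B. clausii, one fell by 0.22, and the third had -0.09 and did not pass. The first also rose by 0.38 with L. acidophilus. Irak3, an inhibitory kinase homologue, fell by 0.20 and 0.21, and the kinase gene Btk by 0.16 with B. clausii. The adaptor gene Tab2 fell by 0.24 with L. acidophilus on 1 of its 2 kept probes, and the other did not pass. Ticam1, which encodes the adaptor TRIF, was lower at 4 and 6 h than before with L. acidophilus, by -0.74 (limma adjusted p = 0.0383) on 1 of its 2 probes, a call that held in 9 of 20 alternatives. It was named after its value was seen.

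The list of transcriptional targets of the receptors held 13 tested probes. Of these, 4 were higher and 0 lower with L. acidophilus, and 4 higher and 1 lower with B. clausii. Median centring turned the B. clausii counts to 0 higher and 6 lower, where 55.1% of all kept probes were called. In the main processing 10.9% of all kept probes were called higher with each bacterium, and 9.59% and 13.2% lower. The chemokine gene Ccl2 rose by 1.40 ± 0.22 (SE, limma adjusted p = 0.00336) and 0.82 ± 0.22 (adjusted p = 0.0244), Tnfaip3, which encodes the NF-kB inhibitor A20, by 0.40 and 0.49, and the chemokine gene Cxcl10 by 0.29 and 0.27. The signalling inhibitor gene Socs3 rose by 0.19 and 0.45 on 1 of its 2 probes. Ptgs2, for cyclooxygenase 2, fell by 0.54 with B. clausii on 1 of its 2 probes. The medians of the list were 0.23 and 0.27, against 0.00 and -0.01 over all kept probes. For late minus early with B. clausii, 2 of the 13 probes were called, both lower, where 0.160% of all kept probes were. The chemokine gene Cxcl2 was lower by -2.28 (limma adjusted p = 0.0446), a call that held in 10 of 21 alternatives, and Ccl2 by -1.26 (limma adjusted p = 0.0391), which held in 7 of 21. At 1, 2, 4 and 6 h with B. clausii the Cxcl2 ratio was 2.35, 1.03, -0.79 and -0.39, thus well above 0 at first. With L. acidophilus the Cxcl2 ratio was 2.06, 1.84, -0.06 and 0.69. The Ccl2 ratio with B. clausii was 1.48, 1.42, 0.49 and -0.11. Both late changes were named after their values were seen.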

How the data were processed

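Spot intensity values (mean foreground, median local background) were deposited as Agilent Feature Extraction wrote them (version 10.7.3.1 per the file headers, 10.5.1.1 per the submitters' processing notes). The deposited log10 ratios, which are of red over green processed signals per the file headers, and the processed intensities served as alternatives. Other deposited columns used were 0 or 1 flags, probe names and coordinates in mm9, per the file headers. Outlying local backgrounds were set to the array's median and those spots dropped. Ratios were then computed with normexp (offset 50) and loess in limma 3.58.1 (R 4.3.3), flagged spots dropped and replicate spots averaged. Channel signals were scaled with Aquantile. A probe was kept if, on 2 or more arrays, either channel was well above background.

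Limma fits (lmFit, eBayes) had bacterium only for the mean responses (6 residual degrees of freedom), bacterium and time for the difference (3), and bacterium by phase for late minus early (4). Leaving time out of the first keeps noise of untreated RNA, possibly shared, in the spread. It also counts any change of a ratio with time as spread, which widens the intervals of genes that moved with time. In late minus early, differences between the times of a phase count as spread likewise. P-values measure spread between arrays of pooled RNA, not between cultures. The scripts were tested on simulated data. Members and lists were chosen with earlier results of these data known. All member probes were named, with up to 3 called genes per list and direction for each mean response, and the 3 nearest profiles of 3 members. Alternatives were other backgrounds, centrings, filters, priors and time terms, and leaving out each array.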

Additional observations from a re-analysis of the deposited data

How the results depend on the processing

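No paired analysis was possible by replicate number, because each bacterium and time has 1 array, while arrays of the same time were paired in the difference between the bacteria and in the alternatives with time as a factor. The rise of the Cd180 AK089613 probe kept its sign in all 21 alternatives for each bacterium, and lost its call in 1, with L. acidophilus and the local background as deposited. Counts of called probes of the 10 were as follows. For the mean response to L. acidophilus (1) they were 2 with no background subtraction, the processed signals, the series matrix values or ratios scaled between arrays, 0 with the local background as deposited, and 5 with time as a factor (41.0% of all kept probes). For that to B. clausii (2) they were 5 with median centring (55.1%), 4 with median centring on the kept probes (53.4%), which was chosen after seeing the data, and 5 with time as a factor (44.2%). For the difference between the bacteria (0) they were 4 with median centring (31.9%), 2 with centring on the kept probes (16.1%), and 1 with the trended robust prior or only probes above background in both channels of all 8 arrays. For late minus early with either bacterium (0) they were 5 for the change common to both (23.1%). Leaving out 1 array at a time gave 1 to 2 calls with L. acidophilus, 2 to 3 with B. clausii and 0 for the other contrasts. Values past 2-fold (2) were 8 with the processed signals, and 9 past 1.5-fold.

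Each alternative was set against the main processing, and list probes were followed only if called there. Among mean responses past the threshold in the main processing or the alternative, those that changed sign did so with B. clausii under median centring: Tlr9 (-0.0087), Ly86 (-0.44, and -0.20 with centring on the kept probes), Unc93b1 (-0.11 and -0.045), Cnpy4 (-0.15), Rnf216 (-0.18), Pld4 (-0.094), Pld3 (-0.14), Lgmn (-0.18), Tollip (-0.10) and Socs3 (-0.013). Cd14, Tlr1 and Tlr2 passed above 0 with B. clausii in other alternatives only. Under median centring they were -0.17, -0.08 and -0.34 and did not pass. Of 35 calls in the pathway lists, 24 were no longer past the threshold with the local background as deposited, and 8 to 12 when 1 array was left out.

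Over all kept probes the alternatives that keep every array called 469 to 8729 probes with L. acidophilus (4355 in the main processing, 53.1% of them higher) and 2584 to 11731 with B. clausii (5130, 45.4% higher). With median centring 22.3% and 7.43% of the called probes were higher. The difference between the bacteria gave 0 to 6796 (308), and late minus early 0 to 4906 (31 and 34). Leaving out 1 array gave 1956 to 5197 with L. acidophilus, 3073 to 5179 with B. clausii, 0 to 82 for their difference, and 0 to 55 and 1 to 1080 for late minus early with L. acidophilus and B. clausii. Causes were not tested.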
